A study of Mus musculus with 10 samples.

Results

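Erythroid genes were examined on arrays of splenic type 1 conventional dendritic cells (cDC1s), the dendritic cells that take up dead cells and present their antigens to CD8 T cells. The 9 genes were Ank1, Epb42, Slc4a1 and Rhag, which encode proteins of the red cell membrane, Alas2, which encodes the first enzyme of haem synthesis in red cell precursors, the carbonic anhydrase genes Car1 and Car2, and Hemgn and Klf1, which encode nuclear proteins of erythroid cells. They were taken by name, each from a probe set (a group of array probes for 1 transcript region) annotated to that gene alone, and all 9 had exactly 1 such probe set among the 19938 genes with a probe set of their own. The study set genotypes of sorted mouse cDC1s beside each other. The arrays came from 2 Zeb2 Id2 DKO, 2 Nfil3 Zeb2 DKO, 3 Zeb2 KO and 3 WT samples, where DKO is a double and KO a single knockout. Zeb2 Id2 DKO cells lack Zeb2 and Id2, Nfil3 Zeb2 DKO cells lack Nfil3 and Zeb2, and Zeb2 KO cells lack Zeb2, so the 3 mutant genotypes share the loss of Zeb2. Strain, age, the kind of allele, any Cre driver, the number of animals per sample and the sorting gate are not given in the sources used here. Red cells were lysed in the spleen suspensions before sorting, per the labels. Nothing in the labels ties replicates to separate animals, and each p-value therefore reflects the spread among these arrays alone, which may be technical.

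As background, a red cell precursor fills itself with haemoglobin and builds a membrane skeleton before it expels its nucleus. Ankyrin, the product of Ank1, ties the anion exchanger band 3 (Slc4a1) to the spectrin skeleton, and protein 4.2 (Epb42) strengthens that link. The Rh-associated glycoprotein (Rhag) is the partner of the Rh antigen proteins in the same complex. The transcription factors GATA1, KLF1 and TAL1 switch these genes on together in erythroid cells. Mouse spleen makes red cells throughout life and also clears old ones, so red cell precursors lie close to the dendritic cells there. Id2 blocks the DNA binding of E proteins, the partners of TAL1, and Nfil3 is a repressor of the basic leucine zipper class.

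Values are log2 of the deposited intensity, on which a difference of 1 is a doubling. Median intensity was 76.3 to 82.9 per array, and arrays of a genotype correlated at 0.986 to 0.997. Zeb2 KO replicate 3 stood apart, being the highest of the 10 arrays in 25.7% and the lowest in 18% of all genes. Without it the fit called more genes in each comparison: 704 in place of 158 between Zeb2 Id2 DKO and Nfil3 Zeb2 DKO, 6 of the 9 erythroid genes among them. The arrays carried high levels of the cDC1 markers: the summed intensity of 12 markers was 43030 to 43300 in Zeb2 Id2 DKO, 42060 to 42150 in Nfil3 Zeb2 DKO, 38930 to 44670 in Zeb2 KO and 41660 to 44310 in WT. Id2 stood at 5.01 and 4.98 on the Zeb2 Id2 DKO arrays and at 9.89 to 10.50 in the 8 others. Nfil3 stood at 6.20 and 7.09 in the Nfil3 Zeb2 DKO arrays and at 9.98 to 10.77 in the others. Zeb2 stood at 6.78 and 6.82 in Zeb2 Id2 DKO, 6.46 and 6.24 in Nfil3 Zeb2 DKO, 5.40 to 6.27 in Zeb2 KO and 5.93 to 6.30 in WT, so both Zeb2 Id2 DKO arrays, labelled as lacking it, read highest of the 10. Where the Zeb2 probe set lies relative to the deleted part is unknown, so it checks nothing about the deletion. Precision is limited by the number of arrays, 2 or 3 a genotype. In bulk RNA, fewer cells of a type and less RNA per cell cannot be told apart.

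Ank1 had the lowest adjusted p of the 9 genes in each comparison with Zeb2 Id2 DKO. Its level was 9.23 and 8.82 in Zeb2 Id2 DKO, against 6.72 and 7.04 in Nfil3 Zeb2 DKO, 7.63, 7.66 and 7.36 in Zeb2 KO and 7.28, 7.28 and 7.0 in WT. Both Zeb2 Id2 DKO arrays were above each of the 8 other arrays by more than 1 unit, and those 8 ranged from 6.72 to 7.66. The difference between Zeb2 Id2 DKO and Nfil3 Zeb2 DKO was 2.15 on the log2 scale (95% interval 1.77 to 2.52), a 4.43-fold rise (limma, adjusted p = 0.000375). Against Zeb2 KO the rise was 1.48 (1.13 to 1.82; limma, adjusted p = 0.00251), and against WT it was 1.84 (1.5 to 2.18; limma, adjusted p = 0.000299). These 3 comparisons share the Zeb2 Id2 DKO arrays and are not independent of each other. When each of the 10 arrays was left out in turn, Ank1 passed the test in all 3 comparisons every time, with adjusted p-values up to 0.00865, 0.0413 and 0.00621.

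The membrane partners of ankyrin showed wider spread. Rhag measured 7.73 and 7.27 in Zeb2 Id2 DKO, against 4.14 and 5.86 in Nfil3 Zeb2 DKO, 6.82, 6.96 and 6.36 in Zeb2 KO and 6.31, 5.94 and 5.60 in WT. Both Zeb2 Id2 DKO arrays were the highest of all, and the lowest value belonged to 1 of the 2 Nfil3 Zeb2 DKO arrays, which differed from each other by 1.72. Between Zeb2 Id2 DKO and Nfil3 Zeb2 DKO, Rhag rose by 2.50 (1.51 to 3.49; limma, adjusted p = 0.0335), the largest estimate among the 9 genes. That estimate rests in part on Nfil3 Zeb2 DKO replicate 1, where Rhag was dim, at 4.14 beside a median of 6.51 over all genes. Epb42 stood at 7.66 and 7.77 in Zeb2 Id2 DKO, against 6.04 and 6.58 in Nfil3 Zeb2 DKO, 7.11, 7.25 and 7.31 in Zeb2 KO and 6.88, 7.06 and 6.23 in WT. Its Zeb2 Id2 DKO arrays were again the top pair, ahead of Zeb2 KO by a narrow margin, and it rose by 1.40 against Nfil3 Zeb2 DKO (0.87 to 1.94; limma, adjusted p = 0.0289).

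Slc4a1, the gene of band 3, measured 10.49 and 10.15 in Zeb2 Id2 DKO, against 7.03 and 9.06 in Nfil3 Zeb2 DKO, 9.55, 9.98 and 9.26 in Zeb2 KO and 9.52, 9.31 and 8.05 in WT. The Zeb2 Id2 DKO arrays were highest, but the Nfil3 Zeb2 DKO arrays differed from each other by 2.03, a wider gap in that direction than any other gene showed. The difference of 2.27 between Zeb2 Id2 DKO and Nfil3 Zeb2 DKO did not pass the test (0.96 to 3.59; limma, adjusted p = 0.125).

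Alas2 stood at 8.23 and 7.82 in Zeb2 Id2 DKO, against 6.46 and 7.34 in Nfil3 Zeb2 DKO, 7.45, 7.60 and 7.85 in Zeb2 KO and 7.45, 7.61 and 6.96 in WT. It was the only one of the 9 genes in which another array, Zeb2 KO replicate 3, exceeded a Zeb2 Id2 DKO array. Its difference between Zeb2 Id2 DKO and Nfil3 Zeb2 DKO was 1.13 (0.50 to 1.76; limma, adjusted p = 0.111). Hemgn, which encodes hemogen, stood at 7.45 and 7.40 in Zeb2 Id2 DKO, against 6.22 and 6.63 in Nfil3 Zeb2 DKO, 6.90, 6.83 and 6.91 in Zeb2 KO and 6.76, 6.54 and 6.27 in WT. The Zeb2 Id2 DKO arrays differed by 0.05 and lay above the rest, and Hemgn rose by 1.0 against Nfil3 Zeb2 DKO (0.65 to 1.36; limma, adjusted p = 0.0176).

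Of the carbonic anhydrases, which convert carbon dioxide and water to bicarbonate, Car2 passed the test and Car1 did not. Car2 stood at 7.74 and 7.77 in Zeb2 Id2 DKO, against 6.24 and 6.68 in Nfil3 Zeb2 DKO, 7.17, 7.36 and 7.26 in Zeb2 KO and 6.88, 6.84 and 6.37 in WT. No genotype's Car2 values overlapped those of Zeb2 Id2 DKO, and Car2 rose by 1.29 against Nfil3 Zeb2 DKO (0.89 to 1.69; limma, adjusted p = 0.00957). Car1, the isoform abundant in red cells, stood at 8.82 and 8.66 in Zeb2 Id2 DKO, against 5.89 and 7.74 in Nfil3 Zeb2 DKO, 8.50, 8.12 and 7.84 in Zeb2 KO and 8.22, 7.58 and 8.57 in WT. Apart from Nfil3 Zeb2 DKO replicate 1, the Car1 levels of the arrays lay between 7.58 and 8.82, and the difference of 1.92 did not pass the test (0.84 to 3.0; limma, adjusted p = 0.113). Klf1, the erythroid Krüppel-like factor, stood at 6.08 and 5.81 in Zeb2 Id2 DKO, against 5.27 and 5.71 in Nfil3 Zeb2 DKO, 5.54, 5.67 and 5.40 in Zeb2 KO and 5.58, 5.62 and 5.33 in WT. It had the smallest difference of the 9 genes, 0.46 (0.10 to 0.82; limma, adjusted p = 0.295).

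**Figure D1:**
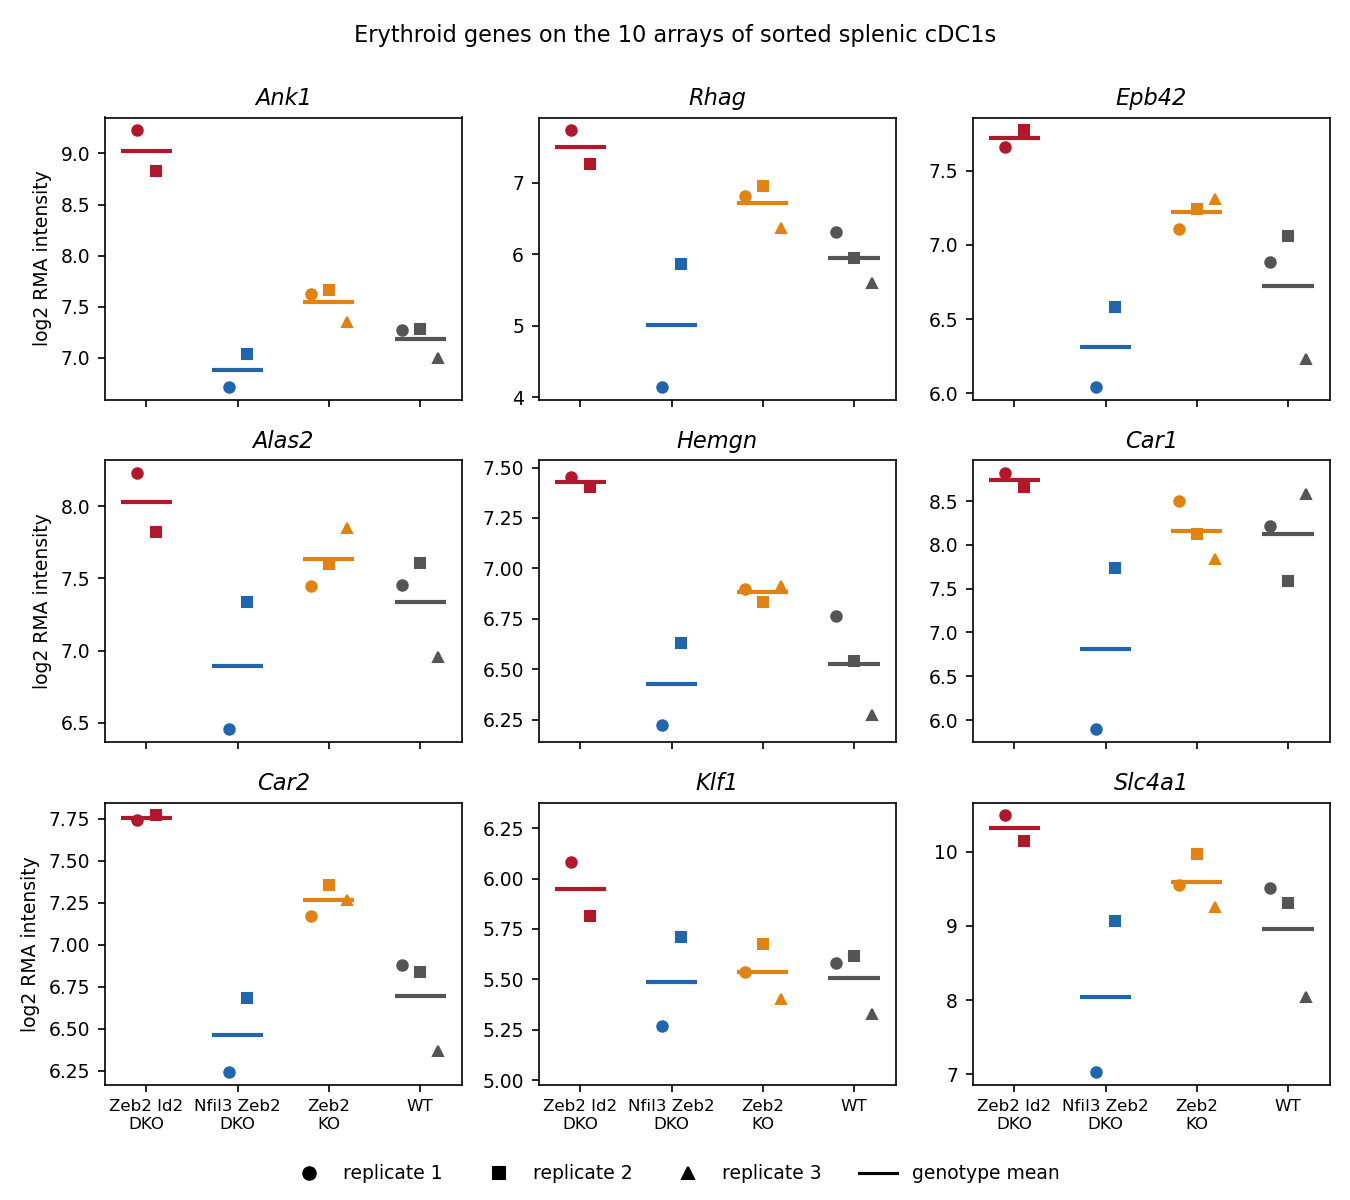
Log2 RMA intensity (y axis) of the 9 erythroid genes on each of the 10 arrays, by genotype (x axis); symbols mark the replicate number and bars the genotype mean, and each panel has its own scale. Both Zeb2 Id2 DKO arrays are above the other 8 in every panel but Alas2, and Nfil3 Zeb2 DKO replicate 1 is the lowest point of all 9 panels.

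In the comparison of Zeb2 Id2 DKO with Nfil3 Zeb2 DKO, 5 of the 9 genes rose (Ank1, Rhag, Epb42, Hemgn and Car2) and 0 fell. Of all genes tested, 0.582% rose and 0.211% fell. In all 9 the arrays of the genotypes did not overlap, with Zeb2 Id2 DKO higher, which held for 22.9% of all genes. The median difference of the 9 was 1.40, beside -0.03 over all genes. Both Zeb2 Id2 DKO arrays exceeded the other 8 arrays in 8 of the 9 genes and in 5.01% of all genes. Since the genes were listed with results of these arrays known, these shares describe the list and are no test of it.

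The 2 Nfil3 Zeb2 DKO arrays contributed unequally. Replicate 1 was the lowest of the 10 arrays in 9 of the 9 genes, a place it held for 8.7% of all genes, and the 9 genes lay on average 1.22 below their 10-array means there. Replicate 2 lay 0.26 below. The gap between them exceeded 0.3 in each of the 9 genes, while the standard deviation of that gap over all genes was 0.16. With replicate 1 left out, the difference stayed positive in all 9 genes, and only Ank1 passed the test (1.99, 1.53 to 2.44; limma, adjusted p = 0.00865). Of all genes, 0.0702% then rose. Rhag had 1.64 (adjusted p = 0.142 in limma), Epb42 1.13 (0.297), Hemgn 0.80 (0.216) and Car2 1.07 (0.12). Leaving out either Zeb2 Id2 DKO array also ended these 4 calls, and Rhag was lost without Zeb2 KO replicate 1, WT replicate 2 or WT replicate 3 as well. Over the 10 arrays left out in turn, adjusted p-values ran from 0.00339 to 0.229 for Rhag, 0.00781 to 0.297 for Epb42, 0.00802 to 0.216 for Hemgn and 0.00387 to 0.12 for Car2. Without Nfil3 Zeb2 DKO replicate 2, 7 of the 9 rose, Slc4a1 and Car1 now among them, as did 0.231% of all genes.

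The platelet genes Pf4 and Ppbp were high in the same Nfil3 Zeb2 DKO array. Pf4, which encodes platelet factor 4, stood at 5.23 and 5.20 in Zeb2 Id2 DKO and at 8.29 and 5.97 in Nfil3 Zeb2 DKO replicates 1 and 2. Ppbp, another platelet chemokine gene, stood at 4.74 and 4.64 in Zeb2 Id2 DKO and at 8.08 and 5.44 in Nfil3 Zeb2 DKO replicates 1 and 2. For the 12 megakaryocyte and platelet markers measured, the summed intensity was 1412 to 1546 in Zeb2 Id2 DKO, 1990 and 1518 in Nfil3 Zeb2 DKO replicates 1 and 2, 1402 to 1861 in Zeb2 KO and 1426 to 1494 in WT. The 10 markers other than Pf4 and Ppbp summed to 1350 to 1482 in Zeb2 Id2 DKO, 1406 and 1412 in Nfil3 Zeb2 DKO replicates 1 and 2, 1301 to 1744 in Zeb2 KO and 1365 to 1436 in WT, so these 10 were not higher in that array. Of these 12, 0 passed the test between Zeb2 Id2 DKO and Nfil3 Zeb2 DKO and 2 were higher in Zeb2 Id2 DKO, and no marker had an intensity below 20.8 on any array. Their part in the differences of the erythroid genes was not tested.

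**Figure D2:**
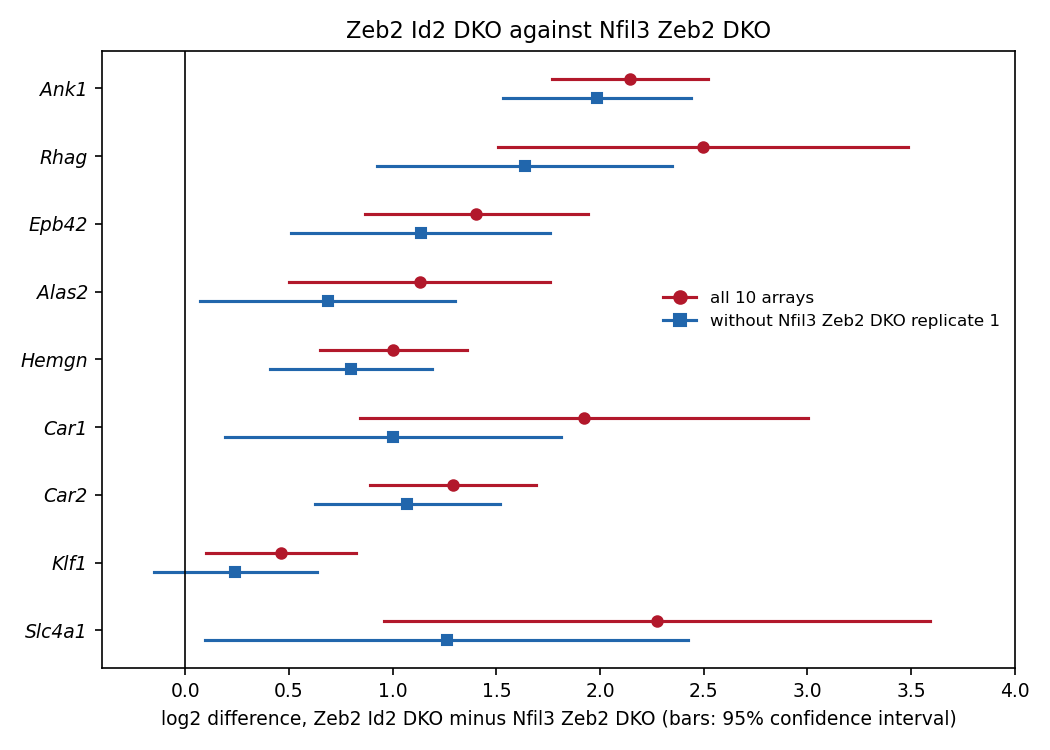
Log2 difference of each erythroid gene (rows) between Zeb2 Id2 DKO and Nfil3 Zeb2 DKO (x axis), with 95% confidence intervals from limma. Circles are the fit to all 10 arrays and squares the fit without Nfil3 Zeb2 DKO replicate 1: Ank1 has 2.15 and 1.99 in these fits, and Slc4a1 has 2.27 and 1.26.

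Against Zeb2 KO, which differs from Zeb2 Id2 DKO by the presence of Id2 according to the labels, Ank1 was the only one of the 9 genes that rose (0.366% of all genes rose). The arrays did not overlap in 8 of the 9, all but Alas2, with Zeb2 Id2 DKO higher; 10% of all genes lay so. The median difference was 0.55, beside -0.01 over all genes, and Hemgn had 0.55 (0.22 to 0.87; limma, adjusted p = 0.227). Among the 9, 5 had an unadjusted p under 0.05, as had 4.35% of all genes in that direction. Against WT, Ank1, Car2 and Hemgn rose (0.878% of all genes rose), Car2 by 1.06 (0.69 to 1.42; limma, adjusted p = 0.0118) and Hemgn by 0.90 (0.58 to 1.23; limma, adjusted p = 0.0142). Zeb2 Id2 DKO lay above WT without overlap in all 9 genes and in 15.2% of all genes, and the median difference was 0.99. With an unadjusted p under 0.05 were 8 of the 9, and 5.48% of all genes in that direction. Leaving out 1 of the Zeb2 Id2 DKO arrays ended both calls, and leaving out WT replicate 2 or adding the replicate number as a block (0.85; limma, adjusted p = 0.0507) ended that of Hemgn, with adjusted p-values over the arrays left out of 0.00532 to 0.128 for Car2 and 0.00649 to 0.145 for Hemgn.

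The comparisons without the Zeb2 Id2 DKO arrays gave 0 calls among the 9 genes. Nfil3 Zeb2 DKO was lower than Zeb2 KO in all 9 (44.9% of all genes were lower), without overlap in 8 of them (all but Klf1), and 10.2% of all genes lay so. The median difference was -0.80. Rhag differed most, by -1.71 (-2.61 to -0.81; limma, adjusted p = 0.374), then Slc4a1 by -1.55 (-2.75 to -0.34; limma, adjusted p = 0.456). In limma 8 of the 9 had an unadjusted p under 0.05, as had 4.45% of all genes in that direction, but only 0.00502% of all genes passed as lower after adjustment, which was 1 gene, the deleted Nfil3. Without Zeb2 KO replicate 3 that share was 0.281%, still with 0 of the 9. Without Nfil3 Zeb2 DKO replicate 2, which leaves only replicate 1, the array lowest in all 9 genes, Rhag differed by -2.57. Without replicate 1 it differed by -0.85. Against WT, all 9 means were lower in Nfil3 Zeb2 DKO, as were 45.8% of all genes, and the median difference was -0.41. The arrays overlapped in each of the 9 (10.7% of all genes lay below WT without overlap, and 0.00502% passed as lower, again Nfil3 alone), and Rhag and Car1 had an unadjusted limma p under 0.05, as had 2.18% of all genes in that direction. Zeb2 KO was higher than WT on average in all 9 genes, and in 49% of all genes, by a median of 0.36. The arrays did not overlap in 5 of the 9 (Ank1, Rhag, Epb42, Hemgn and Car2) and in 5.37% of all genes, and 4 of the 9 had an unadjusted limma p under 0.05, beside 3.64% of all genes in that direction. After adjustment 0.00502% of all genes passed as higher, which was the neutrophil granule gene Ngp, and without Zeb2 KO replicate 3 the share was 0.386%, again with 0 of the 9. The largest of these values in Zeb2 KO against WT belonged to Rhag (0.76, -0.05 to 1.57; limma, adjusted p = 0.697).

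The order of genotype means was the same in all 9 genes: Zeb2 Id2 DKO, Zeb2 KO, WT and Nfil3 Zeb2 DKO, from high to low. Neighbours in that order overlapped in many genes: WT and Nfil3 Zeb2 DKO in all 9, Zeb2 KO and WT in 4, and Zeb2 Id2 DKO and Zeb2 KO in Alas2. Summed over the 9 genes, the intensity was 3662 and 3036 in Zeb2 Id2 DKO, 655.7 and 1449 in Nfil3 Zeb2 DKO, 2041, 2286 and 1793 in Zeb2 KO and 1831, 1630 and 1221 in WT. Among the WT arrays, replicate 3 had the lowest value in 8 of the 9 genes and the highest for Car1.

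Whether the genes moved together was examined over the 8 arrays of Nfil3 Zeb2 DKO, Zeb2 KO and WT, leaving out the Zeb2 Id2 DKO arrays. As a check, the 2 arrays farthest from the median of the first-named gene of a pair were dropped, whatever the values of its partner. All 36 pairs of genes had a positive Pearson correlation, with a median r of 0.86 (0.39 to 0.97) and a median Spearman rho of 0.69 (-0.10 to 0.98). By exact permutation tests adjusted over the 36 pairs, 22 had an adjusted p under 0.05 for r and 14 for rho. The genes were listed with results of these arrays known, and the permutations mixed arrays of different genotypes. Shifts between genotypes that the genes share therefore enter these p-values, which describe the pairs and are no test of the list. Pairs of other genes were not examined in this way. Epb42 and Car2 had the highest r (n = 8, r = 0.97, exact permutation p = 0.000124, adjusted 0.00179; rho = 0.95, exact permutation p = 0.00114, adjusted 0.0103), and without the 2 arrays farthest from the median r was 0.89. By rho, Ank1 and Rhag and also Rhag and Car2 were closer, each pair at 0.976. Rhag and Slc4a1, of the same membrane complex, followed the same course (n = 8, r = 0.95, exact permutation p = 0.000248, adjusted 0.00179; rho = 0.93, exact permutation p = 0.00223, adjusted 0.0134), with r = 0.78 without the 2 farthest arrays.

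Pairs with Car1 or Klf1 had lower coefficients, a split made after the values were seen. The 21 pairs among Ank1, Rhag, Epb42, Alas2, Hemgn, Car2 and Slc4a1 had r of 0.79 to 0.97. The 8 pairs with Car1 had a median r of 0.56, and 0 of them passed by r or rho, while of the 8 pairs with Klf1 (median r 0.56) only that with Slc4a1 passed by r. Over all 36 pairs, dropping the 2 arrays farthest from the median of 1 gene of the pair lowered the median r to 0.56 (-0.71 to 0.95), with 31 positive. Dropping Nfil3 Zeb2 DKO replicate 1 alone left a median of 0.75 with 30 positive. Among the 21 pairs without Car1 and Klf1, all stayed positive in both cases (median r 0.78 and 0.85). For the pairs with Car1, the median r was -0.21 without Nfil3 Zeb2 DKO replicate 1. Within genotypes, the deviations of the 10 arrays from their genotype means correlated positively in all 36 pairs, with a median r of 0.78 (0.03 to 0.95). The Nfil3 Zeb2 DKO arrays hold large and, as a pair, mirrored deviations. Without them the median was 0.61 (-0.85 to 0.96) with 29 of 36 positive, and the 21 pairs without Car1 and Klf1 were all positive (0.33 to 0.94). The 9 genes were measured on the same arrays and share each array's RNA and normalization.

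**Figure D3:**
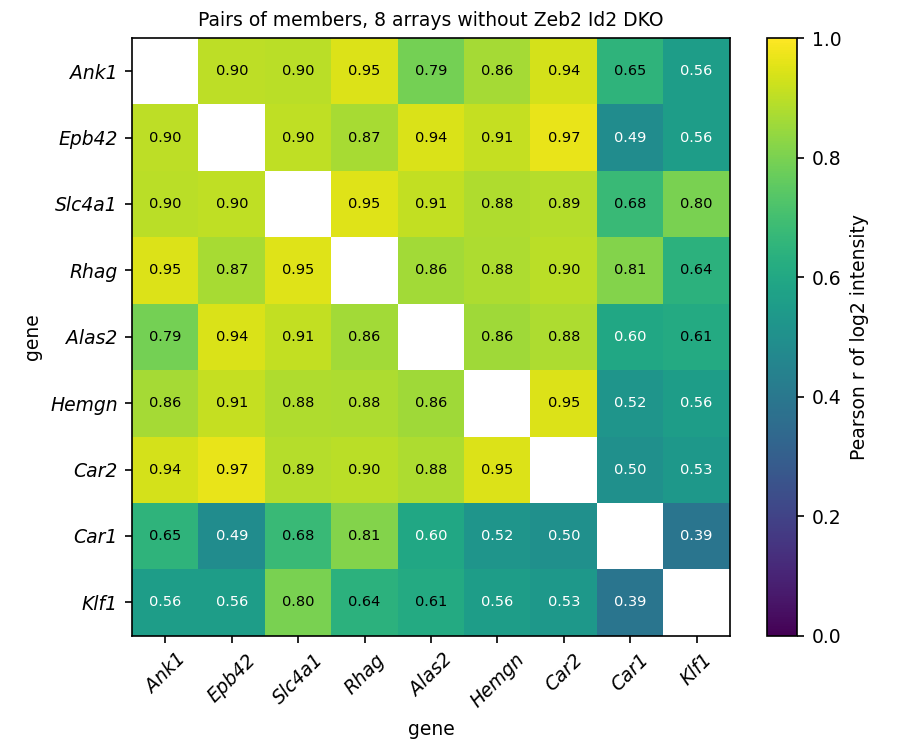
Pearson correlation of log2 intensity for each pair of the 9 erythroid genes (rows and columns) over the 8 arrays of Nfil3 Zeb2 DKO, Zeb2 KO and WT; the colour scale runs from 0 to 1. The 21 pairs in the upper left block have r of 0.79 or more, and the rows of Car1 and Klf1 hold lower values, down to 0.39.

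Promoter sequence was looked up for the 9 genes, and any link between it and their movement across arrays was not tested. RefSeq sequence (GRCm38.p6) was at hand for the 250 bases before the start of 5 of the 9 genes: Rhag, Epb42, Alas2, Hemgn and Klf1. The windows of the 3 called genes among them are shown 5′ to 3′ on the coding strand, ending at the base before the start, with matches to the searched motifs in capitals. Rhag lies on the plus strand (chr17:40810899-40811148), Epb42 on the minus strand (chr2:121036878-121037127) and Hemgn on the minus strand (chr4:46404184-46404433).
Rhag: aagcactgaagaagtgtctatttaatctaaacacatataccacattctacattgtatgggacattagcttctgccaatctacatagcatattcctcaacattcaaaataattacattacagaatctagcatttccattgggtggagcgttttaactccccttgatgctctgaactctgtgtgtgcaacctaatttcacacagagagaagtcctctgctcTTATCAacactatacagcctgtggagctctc
Epb42: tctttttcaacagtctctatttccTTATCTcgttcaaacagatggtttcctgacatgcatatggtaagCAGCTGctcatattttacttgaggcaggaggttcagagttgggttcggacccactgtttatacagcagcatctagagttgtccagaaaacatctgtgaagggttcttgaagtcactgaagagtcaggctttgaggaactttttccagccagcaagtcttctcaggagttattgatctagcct
Hemgn: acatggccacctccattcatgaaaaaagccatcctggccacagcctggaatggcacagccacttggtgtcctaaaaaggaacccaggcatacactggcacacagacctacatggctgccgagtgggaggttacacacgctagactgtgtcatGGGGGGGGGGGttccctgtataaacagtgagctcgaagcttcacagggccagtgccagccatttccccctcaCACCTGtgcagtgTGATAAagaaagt
The GATA words AGATAA or TGATAA or AGATAG or TGATAG, searched on both strands, occurred in 5 of the 5 windows, and in 26.5% of all 32851 RefSeq windows of this length. The match is TTATCA, 31 to 26 bases before the start, in Rhag, TTATCT, 226 to 221 bases before it, in Epb42, and TGATAA, 13 to 8 bases before it, in Hemgn. In Alas2 a match lies 86 to 81 bases before the start and in Klf1 80 to 75. A CACCC word for Krüppel-like factors, CCNCNCCC on either strand, occurred in 2 of the 5 (Alas2 and Hemgn) and in 45.9% of all windows. In Hemgn the 4 overlapping matches fall in a single run of G. The E-box words CAGCTG and CAGGTG, the sites of E proteins, occurred in 2 of the 5 (Epb42 and Hemgn) and in 27.7% of all windows. These matches are letters in a window, and binding was not measured.

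The genes most like the 9 in profile were ranked by Pearson r, over the 10 arrays, with the mean profile of the 9, among 950 other named genes that varied by a standard deviation of at least 0.3. The first 10 were Cldn13 (r = 0.979), Kel (0.969), Rhd (0.968), Nxpe2 (0.968), Ctse (0.968), Btnl10 (0.956), Slc25a37 (0.949), Slc6a9 (0.934), Tmcc2 (0.929) and Ermap (0.924). Kel, Rhd and Ermap encode the Kell, Rh and Scianna blood group antigens of red cells, and Slc25a37 encodes mitoferrin, which brings iron to the site of haem synthesis. Over the 8 arrays without Zeb2 Id2 DKO these 10 had r of 0.84 to 0.976. Cldn13 stood at 8.63 and 8.14 in Zeb2 Id2 DKO, against 6.01 and 6.98 in Nfil3 Zeb2 DKO, 7.74, 7.51 and 7.34 in Zeb2 KO and 7.31, 7.04 and 6.38 in WT. As in most of the 9 genes, both Zeb2 Id2 DKO arrays were the highest and Nfil3 Zeb2 DKO replicate 1 was the lowest, and Cldn13 rose by 1.89 between Zeb2 Id2 DKO and Nfil3 Zeb2 DKO (1.14 to 2.63; limma, adjusted p = 0.0335). These 10 genes were picked by likeness over the same arrays, Zeb2 Id2 DKO included. A rise among them therefore follows from the choice and is no test.

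Other red cell gene lists gave 5 calls between Zeb2 Id2 DKO and Nfil3 Zeb2 DKO. Of all genes, 0.582% rose and 0.211% fell there, and more genes were lower than higher (median -0.03). The lists were chosen with results of these arrays known, so their counts are no test of them. Here 2 of 17 other membrane genes rose and 14 were higher: Aqp1, a water channel, by 1.20 (0.77 to 1.63; limma, adjusted p = 0.0195) and Sptb, the beta chain of spectrin, by 0.56 (0.32 to 0.80; limma, adjusted p = 0.0461). Among 19 haem and iron genes, Slc25a37 rose by 1.07 (0.64 to 1.5; limma, adjusted p = 0.0352) and 15 were higher. Fech, the last enzyme of haem synthesis, had 0.55 (0.26 to 0.84; limma, adjusted p = 0.0907), and the transferrin receptor gene Tfrc, high in haem-making precursors, had 0.19 (-0.32 to 0.69; limma, adjusted p = 0.832). Of 17 erythroid regulators 1 rose, the transcription factor gene Sox6, by 0.56 (0.34 to 0.79; limma, adjusted p = 0.0321), with 14 higher. Gata1 had 0.34 (-0.02 to 0.69) and the erythropoietin receptor gene Epor 0.41 (-0.02 to 0.83), both with a limma adjusted p of 0.469. Of 16 red cell enzyme and surface genes, Cldn13 rose and 13 were higher. The 14 carbonic anhydrases besides Car1 and Car2 had 0 calls and a median of -0.06, with 5 higher. List medians were 0.40 for membrane, 0.19 for haem and iron, 0.30 for regulators and 0.39 for enzyme and surface genes, beside 1.40 for the 9 genes and -0.03 for all genes. With Nfil3 Zeb2 DKO replicate 1 left out, 0 genes of these lists passed the test in limma, and the medians were 0.40, 0.27, 0.23 and 0.22. Leaving out either Zeb2 Id2 DKO array also ended each of these 5 calls, and leaving out Nfil3 Zeb2 DKO replicate 2 ended all but that of Cldn13. Other single arrays ended the calls of Cldn13 and Sox6 (WT replicate 2), Slc25a37 (Zeb2 KO replicate 1) and Sptb (Zeb2 KO replicates 1 and 2, WT replicates 2 and 3).

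**Figure D4:**
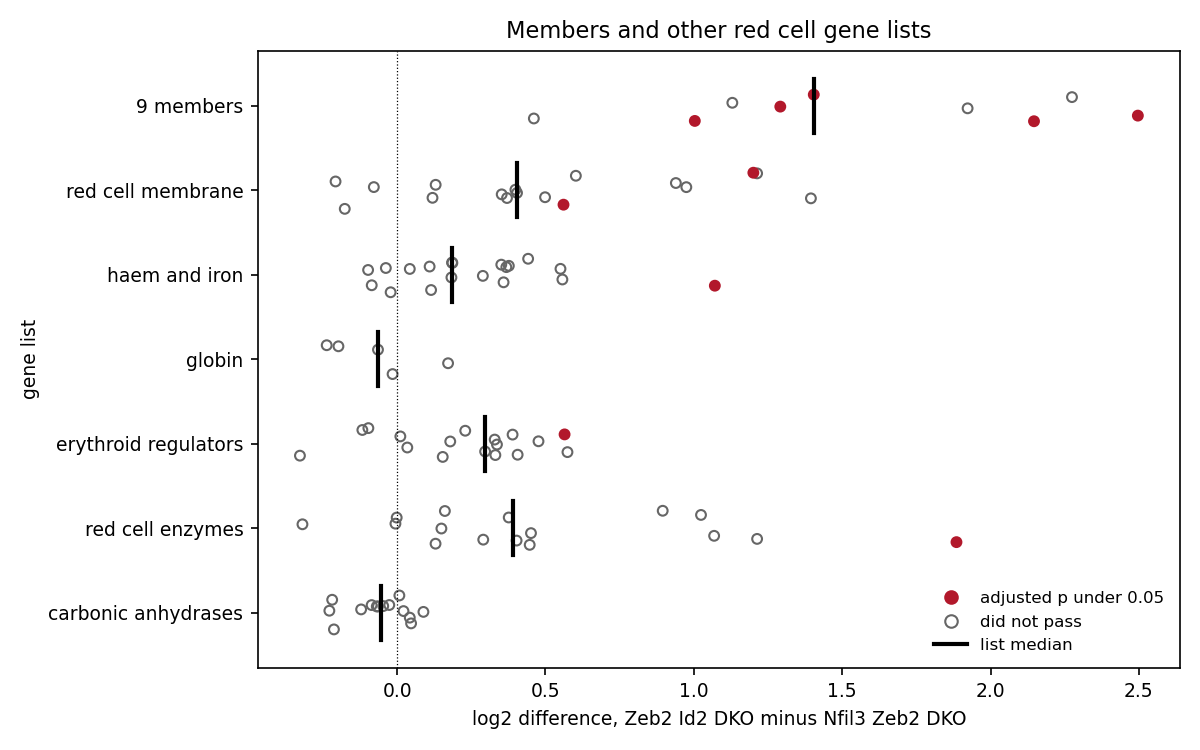
Log2 difference between Zeb2 Id2 DKO and Nfil3 Zeb2 DKO (x axis) for the 9 erythroid genes and 6 further red cell gene lists (rows), 1 point a gene; filled points passed limma at an adjusted p under 0.05, open points did not, and bars are list medians. The 9 genes have a median of 1.40, and the other lists have medians of -0.06 to 0.40. The globin list holds only the 5 embryonic or minor globin genes, without the adult globin probe sets. Rhd is shown in both the membrane and the enzyme list.

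The adult globin genes were read only by probe sets that match several of them, so they were tested apart, in a fit to all probe sets. A probe set for both alpha globin genes stood at 12.24 and 12.27 in Zeb2 Id2 DKO, against 9.72 and 11.39 in Nfil3 Zeb2 DKO, 11.55, 11.70 and 12.58 in Zeb2 KO and 11.76, 12.01 and 11.30 in WT. Nfil3 Zeb2 DKO replicate 1 was again the lowest array, and Zeb2 KO replicate 3 was the highest. The difference of 1.70 between Zeb2 Id2 DKO and Nfil3 Zeb2 DKO did not pass the test (0.62 to 2.78; limma, adjusted p = 0.197). A beta globin probe set, for 4 genes, stood at 13.31 and 13.18 in Zeb2 Id2 DKO, against 11.36 and 12.82 in Nfil3 Zeb2 DKO, with a difference of 1.16 (0.33 to 1.98; limma, adjusted p = 0.265). In addition, 5 embryonic or minor globin genes had probe sets of their own, and 0 of them passed.

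**Figure D5:**
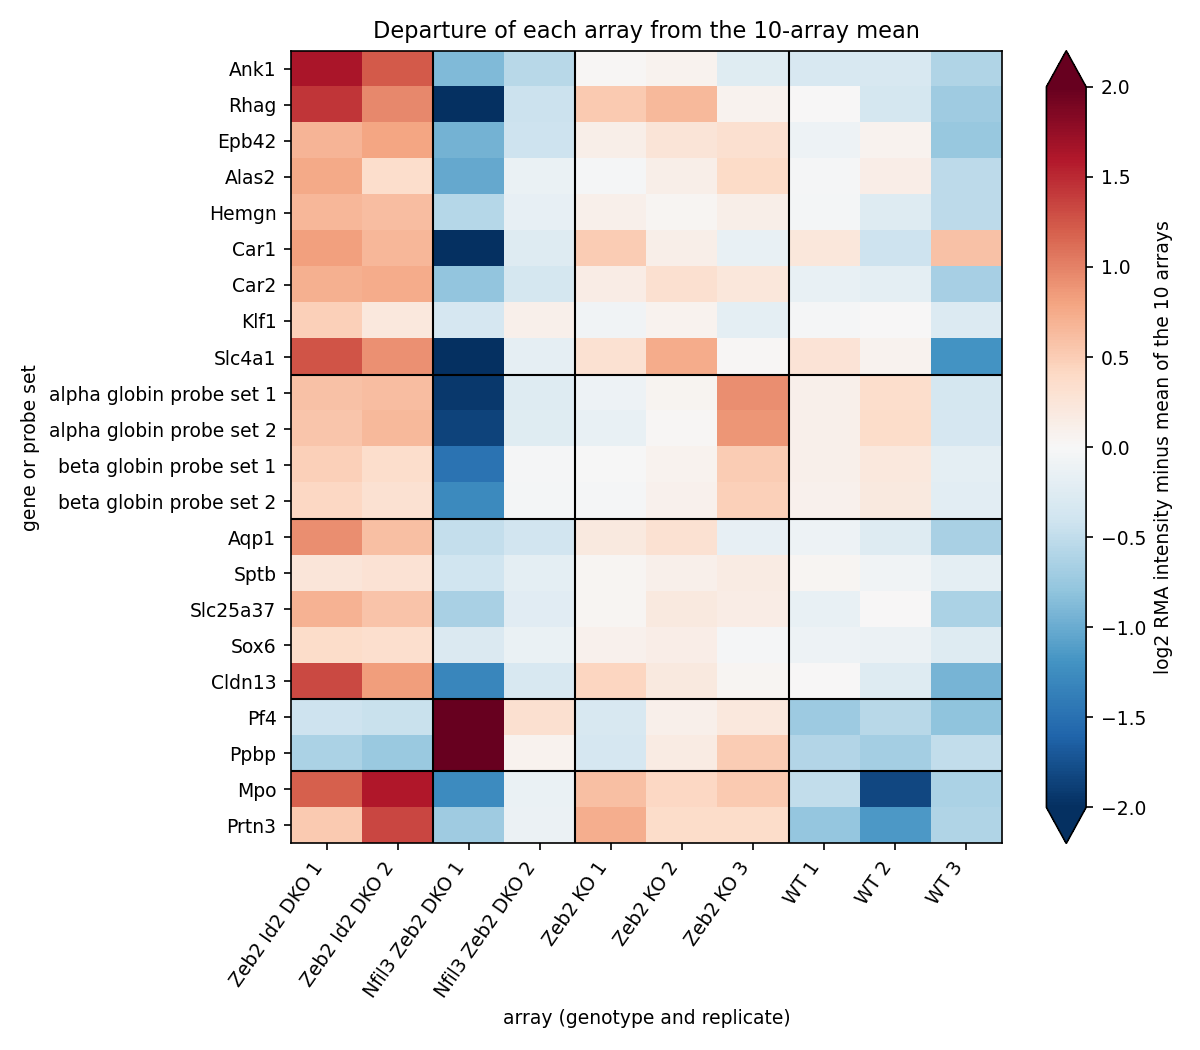
Log2 RMA intensity of each gene or probe set (rows) minus its mean over the 10 arrays, for every array (columns); colours stop at -2 and 2. From the top, the blocks are the 9 erythroid genes, 4 adult globin probe sets, 5 other red cell genes that rose against Nfil3 Zeb2 DKO, 2 platelet genes and 2 neutrophil genes; Nfil3 Zeb2 DKO replicate 1 is lowest throughout the first 3 blocks except for Aqp1, where WT replicate 3 is lowest, and it is highest for Pf4 and Ppbp.

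Markers of other cells also differed between these arrays. Over all genes, the median difference between Zeb2 Id2 DKO and Nfil3 Zeb2 DKO was -0.03, so more genes were lower than higher. Mpo, which encodes the myeloperoxidase of neutrophil granules, stood at 9.16 and 9.58 in Zeb2 Id2 DKO, against 6.70 and 7.84 in Nfil3 Zeb2 DKO, 8.57, 8.38 and 8.49 in Zeb2 KO and 7.47, 6.15 and 7.33 in WT. Its difference between Zeb2 Id2 DKO and Nfil3 Zeb2 DKO was 2.10 (1.16 to 3.03; limma, adjusted p = 0.055), and of 18 neutrophil markers 0 passed there, 16 were higher and the median was 0.99. The summed neutrophil markers were 6374 and 16710 in Zeb2 Id2 DKO, 3244 and 5125 in Nfil3 Zeb2 DKO, 7784 to 17270 in Zeb2 KO and 1891 to 2320 in WT, with no marker below an intensity of 22.5. This sum was higher in Zeb2 Id2 DKO replicate 2 than in replicate 1, whereas the sum over the 9 erythroid genes was higher in replicate 1. Of these 18, 9 rose against WT, where 0.878% of all genes rose. Against Zeb2 KO 0 of them passed, and 0.366% of all genes rose. Of the basophil, mast cell and eosinophil markers, 9 of 11 were higher against Nfil3 Zeb2 DKO and 0 passed. Their summed intensity was 1591 to 2224 in Zeb2 Id2 DKO, 889.3 to 979.4 in Nfil3 Zeb2 DKO, 772.1 to 3279 in Zeb2 KO and 710.7 to 984.8 in WT, with no marker below 11.9. Summed markers of red pulp macrophages, which engulf old red cells, were 4823 to 4857 in Zeb2 Id2 DKO, 4737 to 5009 in Nfil3 Zeb2 DKO, 4128 to 5221 in Zeb2 KO and 5523 to 6156 in WT, and 0 of 18 passed against Nfil3 Zeb2 DKO. The part of any of these cells in the differences of the erythroid genes was not tested.

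Further lists gave few calls between Zeb2 Id2 DKO and Nfil3 Zeb2 DKO, where 0.582% of all genes rose and 0.211% fell. Of 10 plasmacytoid dendritic cell markers, 3 rose (Siglech, Cd300c and Upb1), and Siglech, a surface receptor of those cells, stood at 8.07 and 7.90 in Zeb2 Id2 DKO, against 6.87 and 6.53 in Nfil3 Zeb2 DKO. Meis1 of 12 stem and progenitor genes, Cadm1 of 12 cDC1 markers and Il2rb of 10 NK cell genes fell. Of 10 T cell genes Cd6 rose and Cd3d and Cd3g fell, and of 9 B cell genes 0 passed in limma. None of these calls held without Nfil3 Zeb2 DKO replicate 1. Leaving out any other array of these 2 genotypes, which likewise leaves 1 array in a genotype, also ended most of them. With 1 array left out at a time the difference stayed at 1.11 to 1.46 for Siglech and -0.81 to -0.64 for Cadm1. Siglech also rose against Zeb2 KO (1.91; limma, adjusted p = 0.00128) and WT (1.67; limma, adjusted p = 0.00164), and Cadm1 fell against WT (-0.87; limma, adjusted p = 0.00225), each whichever array was left out. The summed plasmacytoid markers were 5672 to 5833 in Zeb2 Id2 DKO, 3335 to 3611 in Nfil3 Zeb2 DKO, 2597 to 3577 in Zeb2 KO and 3432 to 3626 in WT, and their part in the differences of the erythroid genes was not tested. The summed stem and progenitor genes were 7972 to 8291, 7114 to 7265, 5822 to 7502 and 6913 to 7234 in the same order. Of these 12, 4 were higher and 8 lower in Zeb2 Id2 DKO than in Nfil3 Zeb2 DKO, and their part was not tested either.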

How the data were processed

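Each sample was 1 Affymetrix Mouse Gene 1.0 ST array of total RNA amplified from sorted splenic cDC1s, per the labels. The authors used Affymetrix Expression Console with RMA, per the submitters' processing notes, and the deposited values are linear intensities (5.05 to 16019); log2 was taken here. The sources used here do not name the annotation behind the authors' probe set summaries. Of 28853 probe sets, 21789 named 1 gene, 1621 several and 5443 none, by the platform annotation. For 999 genes with several probe sets the one with the highest mean was used.

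One linear model with 4 genotype means, over 10 arrays and 19938 genes, was fitted with limma 3.58.1 in R 4.3.3 (6 residual and 4.47 prior degrees of freedom), with Benjamini-Hochberg adjustment over all genes within each of 6 comparisons and a threshold of 0.05. Intervals are 95%. The fit and the exact permutation tests were tested on simulated data.

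The 9 genes and all lists were chosen with earlier results of these data known. Named were the 9 genes; from each list the called genes (up to 4) or else the lowest p as values; some fixed erythroid genes; and the 10 most alike genes. Alternatives were other probe set rules, normalizations, fits and left-out arrays. No array was identical to another, and no scan date was used. Same-numbered replicates did not deviate together (13 pairs, r of -0.312 to 0.162), so the numbers were not taken as pairs.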

Additional observations from a re-analysis of the deposited data

Results flagged for a closer look

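Adult globin signal came from probe sets outside the gene-level comparisons, since each matches several globin genes. On all 4 of them both Zeb2 Id2 DKO arrays were above the 3 WT arrays, as in 15.2% of all genes, and Zeb2 KO replicate 3 was above both Zeb2 Id2 DKO arrays. The mean difference between Zeb2 Id2 DKO and WT was 0.568 and 0.563 log2 on the alpha globin probe sets and 0.367 and 0.336 on the beta globin probe sets. None of these differences passed the test in limma (adjusted p = 0.884, 0.875, 0.928 and 0.92).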

How the results depend on the processing

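The 5 calls between Zeb2 Id2 DKO and Nfil3 Zeb2 DKO stayed at 5 under the other probe set rules, normalizations, variance prior, fits and the replicate block, and numbered 4 with dim genes left out, where Rhag and Klf1 were not tested. Leaving out 1 array at a time gave 1 to 7 calls there (1 without either Zeb2 Id2 DKO array or Nfil3 Zeb2 DKO replicate 1), 1 to 4 against WT, 0 to 1 in Nfil3 Zeb2 DKO against Zeb2 KO, and no change in the count elsewhere. Leaving out both WT replicate 1 and Zeb2 KO replicate 3, chosen after seeing the data, gave 8, 5 and 2 calls in these 3 comparisons, while calls over all genes also rose, to 958 in place of 158, 1104 in place of 286 and 266 in place of 1; the cause was not tested. Without Zeb2 KO replicate 3 alone, 704, 760 and 106 genes were called there, and 165 in place of 4 in Zeb2 KO against WT. With the replicate block, 5, 1, 2, 0, 0 and 0 of the erythroid genes were called in the 6 comparisons. Of all genes, 182, 72, 183, 1, 1 and 8 were then called. Hemgn was lost against WT (0.85; limma, adjusted p = 0.0507), and the block changed no other call among the erythroid genes. Signs turned only in values that never passed. With 1 array left out at a time, Nfil3 Zeb2 DKO against WT ran from -0.88 to 0.00059 for Alas2, -0.30 to 0.10 for Hemgn, -0.24 to 0.20 for Klf1 and -1.93 to 0.10 for Slc4a1, and with those 2 arrays left out together Hemgn had 0.018 and Klf1 0.016. Nfil3 Zeb2 DKO against Zeb2 KO ran from -0.27 to 0.17 for Klf1. Zeb2 KO against WT ran from -0.24 to 0.25 for Car1 and from -0.063 to 0.10 for Klf1. Of 1014 single-gene values under the alternatives, 963 kept direction and call, 21 lost a call, 15 gained one and 15 turned. Over all genes, fitting only the 2 genotypes compared called 833 genes in place of 158 (Zeb2 Id2 DKO against Nfil3 Zeb2 DKO), 20 in place of 99 (against Zeb2 KO) and 554 in place of 286 (against WT); the block gave 183 in place of 286 against WT and 8 in place of 4 in Zeb2 KO against WT. In that last comparison, centring arrays gave 0 and leaving out dim genes 2. No detection calls came with the arrays, so how far dim genes such as Rhag and Klf1 stand above background is unknown.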
